A study of Homo sapiens with 12 samples.

Results

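The transcripts described here are those of 10 genes that carry glucose into the cell and convert it to lactate: the transporter SLC2A1 and the enzymes HK2, GPI, ALDOA, TPI1, GAPDH, PGK1, ENO1, PKM and LDHA. They were chosen by name, by looking up the Ensembl identifier of each symbol in the deposited expression table, and all 10 were among its 12725 genes. No measured value entered that choice, although earlier results of these data were known when it was made. Glycolysis splits glucose into pyruvate in the cytosol and yields ATP and NADH. Lactate dehydrogenase turns pyruvate into lactate and returns NAD+ to the pathway. Proliferating B cells and B cell lymphomas, Burkitt lymphoma among them, are known for high glucose use, and MYC and the hypoxia-inducible factor HIF-1 are known activators of many of these genes.

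The study measured the effect of the microRNA miR-28 on the transcriptome of Ramos, a human B cell line from a Burkitt lymphoma, by sequencing polyadenylated RNA. Both groups were the same line transduced with the inducible lentiviral vector pTRIPZ, which carried either miR-28 or a scrambled sequence. In both groups cells were kept in puromycin at 0.4 µg/ml, given doxycycline at 0.5 µg/ml over 2 days, and sorted by FACS for the red fluorescent protein of the vector. The 12 libraries form 6 sample pairs, each with 1 scramble and 1 miR-28 library. Pairs 1, 2 and 3 belong to library batch 1, and pairs 4, 5 and 6 to library batch 2. The transduction label reads XENO 1 in pairs 1, 4 and 5 and XENO 2 in pairs 2 and 6, and has no number in pair 3. The sample descriptions name the libraries of pairs 4 and 5 as bis and tris of number 1. They name those of pair 6 as bis of number 2, so these names go with the XENO numbers. The 6 pairs may therefore not be independent samples. What XENO stands for, and whether libraries with the same number came from the same transduced cells, is not stated in the sources used here. All results are from a single cell line, and p-values measure only the spread between these libraries, which may in part be technical.

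The libraries held 15404730 to 37876636 reads over the 12725 genes, and values are CPM, library-size-scaled reads, with edgeR's TMM factors. MIR28 was at 0 CPM in the 6 scramble libraries and at 0.983 to 3.16 CPM in the 6 miR-28 libraries, as the labels have it. Of 14 B cell markers 13 were measured, with summed levels of 11219 to 13141 CPM in scramble and 11069 to 13011 CPM in miR-28 libraries. Of 11 T cell markers 5 were measured, at sums of 19.7 to 142 and 41.3 to 170.4 CPM, of 8 epithelial or stromal markers only PECAM1 was measured, at 0.713 to 2.39 CPM over the 12 libraries, and of 8 myeloid markers 0 were. In the scramble library of pair 3, mitochondrially encoded protein-coding transcripts took 6.90% of reads, against 1.14% to 3.21% in the other libraries. That library was also the lowest of its group in 9 of the 10 genes described here, so ranges and fold changes are also given without pair 3.

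The 10 genes were expressed in every library, and GAPDH was the most abundant. To compare genes with each other, CPM was divided by the length of the union of annotated exons. GAPDH (ENSG00000111640, chr12:6533927-6538374, plus strand of GRCh38), which oxidises glyceraldehyde 3-phosphate and makes NADH, had a median level of 822 CPM per kilobase in scramble libraries. ENO1 (ENSG00000074800, chr1:8861000-8879250, minus strand), the enolase that makes phosphoenolpyruvate, was next at 260.2 CPM per kilobase. GAPDH was above ENO1, and ENO1 above TPI1, in 12 of 12 libraries, although their ranges over the scramble libraries overlapped.

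Triose phosphate isomerase TPI1 (ENSG00000111669, chr12:6867119-6870948, plus strand) had a median of 153 CPM per kilobase. The lactate dehydrogenase subunit LDHA (ENSG00000134333, chr11:18394388-18408425, plus strand) had 152, and the aldolase ALDOA (ENSG00000149925, chr16:30064164-30070457, plus strand) had 144 CPM per kilobase. Neighbours among these genes changed places between libraries, with TPI1 above LDHA in 8 of 12 and LDHA above ALDOA in 8 of 12. Pyruvate kinase PKM (ENSG00000067225, chr15:72199029-72231822, minus strand) followed at 126 and phosphoglycerate kinase PGK1 (ENSG00000102144, chrX:77910739-78129296, plus strand) at 84.0 CPM per kilobase. Both of these enzymes make the ATP of the pathway.

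The 3 genes of the entry into the pathway had the lowest levels per length. Glucose-6-phosphate isomerase GPI (ENSG00000105220, chr19:34359480-34402413, plus strand) had a median of 25.1 CPM per kilobase, and the glucose transporter GLUT1, encoded by SLC2A1 (ENSG00000117394, chr1:42925375-42959176, minus strand), had 22.6. Hexokinase 2, encoded by HK2 (ENSG00000159399, chr2:74833981-74893359, plus strand), had 20.1 CPM per kilobase and was below SLC2A1 in 11 of 12 libraries. PGK1 was above GPI in 12 of 12 libraries, whereas GPI was above SLC2A1 in 6 of 12. All neighbours in this order had overlapping ranges in scramble libraries. With the length of the longest annotated transcript, LDHA and PKM came before TPI1 and ALDOA, and the places of GAPDH, ENO1, PGK1, GPI, SLC2A1 and HK2 were the same.

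**Figure D1:**
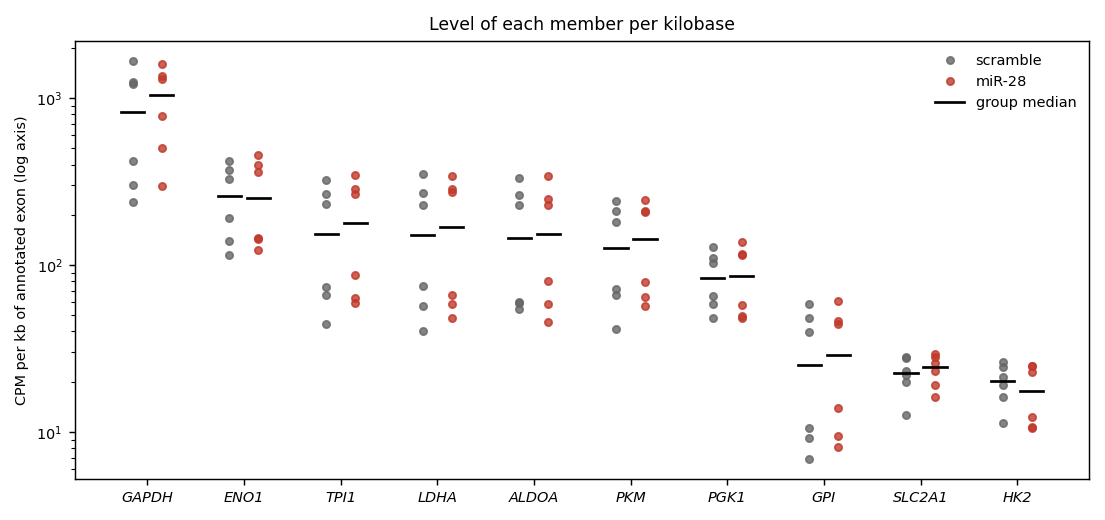
Level of each of the 10 genes in CPM per kilobase of annotated exon, on a log axis. Each point is 1 of 6 scramble (grey) or 6 miR-28 (red) libraries and bars are group medians. GAPDH leads with scramble medians from 822 down to 20.1 for HK2, and within most genes the points of either group fall into a high and a low cluster.

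Levels of these genes varied more over scramble libraries than the differences between miR-28 and scramble varied over pairs. On the log2(CPM + 1) scale the SD over scramble libraries was 1.37 (HK2) to 5.62 (LDHA) times that of the differences within pairs. Without pair 3 the ratio was 1.61 (HK2) to 5.25 (PKM). The SD of the differences shows how much they varied, not how large they were. LDHA, which makes lactate, had 1682, 1421, 250.4, 466, 2175 and 353 CPM in scramble libraries 1 to 6. In miR-28 libraries 1 to 6 it had 1778, 1692, 298, 365, 2125 and 408 CPM. Pairs 1, 2 and 5 were high and pairs 3, 4 and 6 low in both groups, with no overlap between the high and the low libraries, and the highest scramble library had 8.69 times the level of the lowest (6.16 times without pair 3).

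GPI, which turns glucose 6-phosphate into fructose 6-phosphate, had 517, 423, 73.7, 113, 620.1 and 98.0 CPM in the scramble libraries. Its miR-28 libraries had 496, 472, 101, 87.2, 648 and 148 CPM. The same 3 pairs were high, and the range in scramble libraries was 8.42-fold (6.33-fold without pair 3).

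This order held for all 10 genes: in each, every library of pairs 1, 2 and 5 was above every library of pairs 3, 4 and 6 of the same group. The division into these pairs was read from the order of the libraries themselves and is no group of the study, so it is a description with no test. Many genes share it: 2740 of 12725 genes (21.5%) had this order in both groups, and 2814 (22.1%) had the reverse. In bulk RNA a change in the share of some cells and a change in the RNA per cell cannot be told apart. Leaving out pair 3 cannot break the order in a gene that has it, so the 10 of 10 found then is no check. Of all genes 24.4% had the order without pair 3. With DESeq2 size factors the order held for 10 of 10 genes (22.2% of all genes). Scaled by library size without TMM it held for 9 of 10 (15.3%), the exception being SLC2A1.

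The width of the range differed between the genes. In scramble libraries, highest over lowest was 7.21 for TPI1, 7.04 for GAPDH, 6.09 for ALDOA and 5.89 for PKM. It was 3.67 for ENO1 and 2.64 for PGK1. It was 2.30 for HK2 and 2.23 for SLC2A1. Without pair 3 highest over lowest was 4.87 for TPI1, 5.59 for GAPDH, 5.62 for ALDOA and 3.69 for PKM. Without it ENO1 had 3.04, PGK1 2.17, HK2 2.30 and SLC2A1 1.40, so SLC2A1 had the narrowest range of the 10 either way, while HK2 and PGK1 changed places. The SD of log2(CPM + 1) over scramble libraries was 1.37 for GPI, above that of 98.9% of all genes in the table, and 0.420 for SLC2A1, above that of 56.7%; without pair 3 these SDs were 1.26 and 0.210. The median of this SD was 1.13 for the 10 genes and 0.376 for all genes. The SD of the difference within pairs had a median of 0.251 for the 10 genes and 0.248 for all genes.

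**Figure D2:**
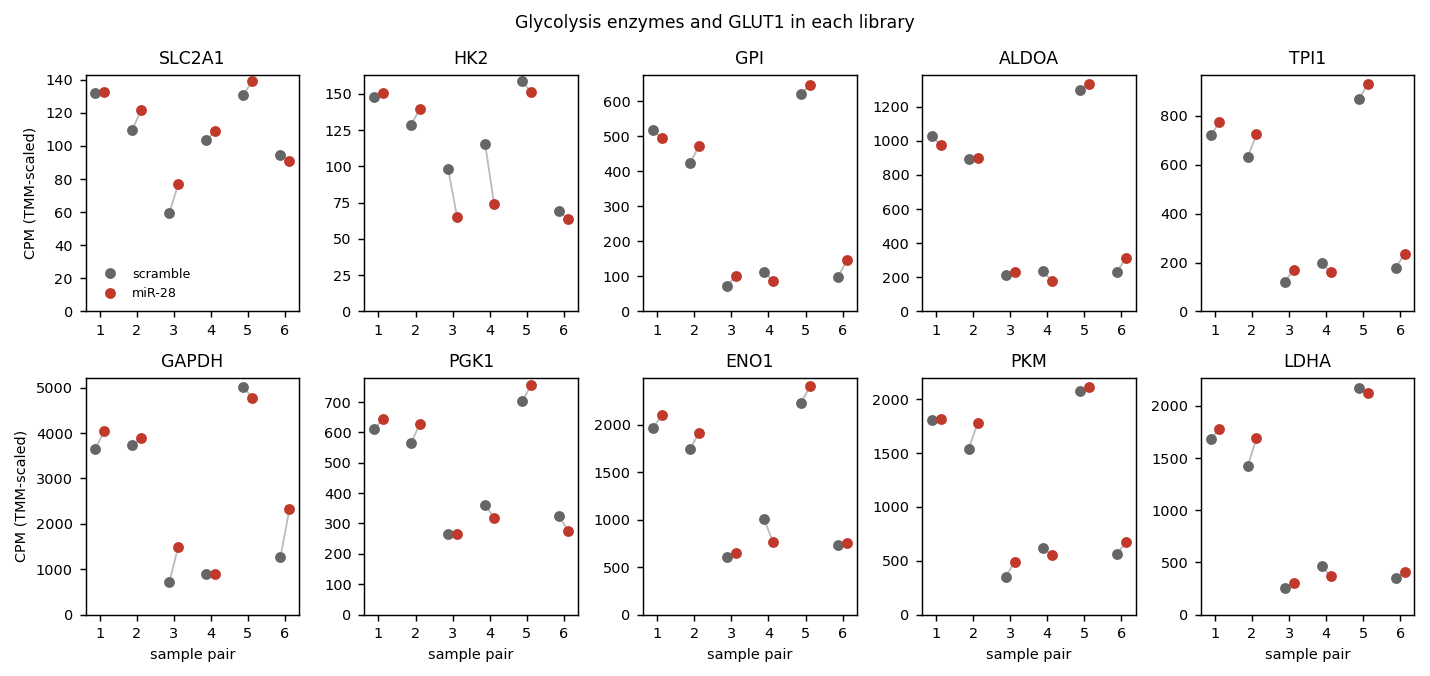
CPM of each of the 10 genes (vertical axes start at 0) in the scramble (grey) and miR-28 (red) library of sample pairs 1 to 6, with a line joining the libraries of a pair. Pairs 1, 2 and 5 are above pairs 3, 4 and 6 in each panel.

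Neither label of the design matches this order. Library batch 1 held pairs 1 and 2, which were high, and pair 3, which was low, and batch 2 held pair 5, which was high, and pairs 4 and 6, which were low. Among the pairs labelled XENO 1, the scramble library of pair 5 had 1.26 to 5.59 times the level of that of pair 4 over the 10 genes, with a median of 3.87. Among those labelled XENO 2, the scramble library of pair 2 had 1.16 to 4.31 times the level of that of pair 6, with a median of 2.85. The scramble libraries of pairs 5 and 1, both high and both XENO 1, differed by factors of 0.990 to 1.37.

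Batch 2 and batch 1 were compared in the limma fit with group and batch. The difference on the log2(CPM + 1) scale, batch 2 minus batch 1, ranged over the 10 genes from -0.48 (SE 0.643) in ALDOA to 0.12 (SE 0.211) in SLC2A1. None of the 10 was called by limma at an adjusted p under 0.05 (0% of all genes were), and 0 of the 10 had an unadjusted p under 0.05, where 37 of all genes had. DESeq2 and edgeR called 0 of the 10 as well.

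The main comparison asked whether these transcripts changed with miR-28. No change was detected in any of the 10. In limma with batch 0 of 10 genes had an unadjusted p under 0.05, where 42 of 12725 genes had. At an adjusted p under 0.05, 0 of 10 passed, where 2 genes (0.0157%) did. With the sample pair as a block 0 of 10 passed as well, where 3 genes (0.0236%) did. Fold changes below are miR-28 minus scramble on the log2(CPM + 1) scale from the fit with batch.

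SLC2A1, the glucose transporter, had 132, 109.7, 59.4, 104, 131 and 94.5 CPM in scramble and 133, 122, 76.9, 109, 139 and 90.8 CPM in miR-28 libraries 1 to 6. The groups overlapped, and miR-28 was the higher library in 5 of 6 pairs. The difference was 0.10 (SE 0.211, 95% interval -0.36 to 0.56), with an adjusted p of 1.00 in limma.

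HK2, which phosphorylates glucose and so keeps it in the cell, had 148, 129, 98.2, 115, 159 and 69.1 CPM in scramble libraries. It had 151, 139, 65.2, 74.0, 151 and 63.8 CPM in miR-28 libraries. The miR-28 library was clearly lower in pairs 3 and 4 and close to its partner in the rest, and the groups overlapped. HK2 had the lowest fold change of the 10, -0.21 (SE 0.283, 95% interval -0.83 to 0.41), with a limma adjusted p of 1.00 with batch and 0.607 with the block. Without pair 3 the value with the block was -0.13, and without pair 4 it was also -0.13.

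The next 3 steps gave small differences, with wide intervals in the fit with batch. GPI differed by 0.14 (SE 0.694, 95% interval -1.38 to 1.65). ALDOA, which splits fructose 1,6-bisphosphate, had 214 at the lowest, 565 at the median and 1300.0 at the highest CPM in scramble and 178 at the lowest, 604 at the median and 1331 at the highest in miR-28 libraries, a difference of 0.02 (SE 0.643, 95% interval -1.39 to 1.42). TPI1, which interconverts the triose phosphates made by aldolase, had 121 at the lowest, 414 at the median and 869 at the highest CPM in scramble and 159.8 at the lowest, 480.2 at the median and 929 at the highest in miR-28 libraries, a difference of 0.16 (SE 0.632, 95% interval -1.21 to 1.54). The groups overlapped almost wholly in each of the 3 genes. With the sample pair as a block the 95% interval was -0.12 to 0.39 for GPI, -0.20 to 0.23 for ALDOA and -0.06 to 0.38 for TPI1.

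GAPDH had the highest fold change of the 10. It had 3641, 3725, 711, 895, 5004 and 1259 CPM in scramble and 4042, 3883, 1494, 891, 4782 and 2317 CPM in miR-28 libraries 1 to 6. The miR-28 library was higher in 4 of 6 pairs, and the difference lay mostly in pairs 3 and 6, both low in the order above. Within pairs 1 to 6 the log2 difference was 0.15, 0.06, 1.07, -0.01, -0.07 and 0.88. The fold change was 0.35 (SE 0.581, 95% interval -0.92 to 1.62), with a limma adjusted p of 1.00 with batch and 0.607 with the block, whose interval was -0.01 to 0.71. Without pair 3 the value with the block was 0.20, and without pairs 3 and 6 it was 0.03 (limma adjusted p 0.962 and 1.00). GENCODE 29 names 62 GAPDH pseudogenes, of which 0 were in the table, and how reads shared with such copies were assigned was not tested.

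The later steps were also without a call. PGK1, which makes the first ATP of the payoff phase, had 610.1, 566, 267, 360.4, 703 and 324 CPM in scramble and 645, 629, 265, 319, 756 and 274 CPM in miR-28 libraries, a difference of -0.01 (SE 0.343, 95% interval -0.76 to 0.73). ENO1 had 1968, 1741, 608, 1005, 2232 and 735 CPM in scramble and 2097, 1911, 650.0, 765, 2406 and 753 CPM in miR-28 libraries, a difference of 0.01 (SE 0.447, 95% interval -0.96 to 0.99). In both genes the miR-28 library of pair 4 was below its partner, and the groups overlapped. PKM, which makes pyruvate, had 353 at the lowest, 1081 at the median and 2083 at the highest CPM in scramble and 489 at the lowest, 1227 at the median and 2114 at the highest in miR-28 libraries, a difference of 0.13 (SE 0.543, 95% interval -1.05 to 1.32). LDHA, with the values above, differed by 0.07 (SE 0.697, 95% interval -1.45 to 1.59), although its level ranged 8.69-fold across scramble libraries. GENCODE 29 names 6 LDHA pseudogenes, of which LDHAP4 was in the table at 5.17 to 56.0 CPM. Pseudogenes are also named for PKM (5), TPI1 (4), ENO1 (4), ALDOA (2), HK2 (1) and PGK1 (1).

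The block narrowed the intervals of all 10 genes. The SE fell from 0.697 to 0.0907 for LDHA and from 0.694 to 0.114 for GPI. With the block the 95% interval was -0.13 to 0.27 for LDHA, -0.07 to 0.33 for PKM, -0.18 to 0.21 for ENO1 and -0.18 to 0.15 for PGK1, so larger mean differences lie outside these intervals. It was -0.45 to 0.03 for HK2 and -0.05 to 0.26 for SLC2A1, and each of these 6 intervals holds 0. By DESeq2 with the block, which called 21 genes (0.165%), 0 of 10 were called. GAPDH alone of the 10 had an unadjusted p under 0.05 there (0.0207, DESeq2 adjusted p = 0.552), as 1051 of 12725 genes had. By edgeR with the block, which called 1 gene (0.00786%), 0 of 10 were called. In that fit 0 of the 10 had an unadjusted p under 0.05, where 883 of all genes had.

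Without pair 3 the values with the block were 0.05 for SLC2A1, 0.08 for GPI, 0.10 for TPI1 and 0.06 for PKM, each lower than with all pairs. They were 0.000569 for ALDOA, -0.02 for PGK1, -0.00469 for ENO1 and 0.03 for LDHA. In that limma fit 0 of 10 genes were called, and 0 had an unadjusted p under 0.05, where 599 of 12725 genes had.

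Over the list, 8 of 10 fold changes were above 0, against 47.1% of all genes, and the median was 0.09 against -0.01 for all genes. Without pairs 3 and 6, GPI (-0.05), ALDOA (-0.11), ENO1 (-0.01), LDHA (-0.01) and HK2 (-0.14) were below 0. SLC2A1, TPI1, GAPDH, PGK1 and PKM were then above 0, at 0.02 (PKM) to 0.08 (SLC2A1). GPI, ALDOA, PGK1, ENO1 and LDHA changed sign in at least 1 of 30 settings of the fit. The pairs differed in direction. In pair 2 the miR-28 library was higher in 10 of 10 genes (median 0.15), and in pair 4 in 1 of 10 (median -0.33), that gene being SLC2A1. ENO1 shows the contrast: its log2 differences were 0.09, 0.13, 0.10, -0.39, 0.11 and 0.04, with pair 4 far below the other 5. Medians were 0.31 in pair 3 and 0.23 in pair 6, in both of which GAPDH had the highest value, and 0.05 in pairs 1 and 5. The miR-28 and scramble libraries overlapped in all 10 genes, and were without overlap in 0.0629% of all genes. None of the 10 genes was higher in 6 of 6 pairs or lower in 6 of 6, as 2.07% and 2.19% of all genes were.

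**Figure D3:**
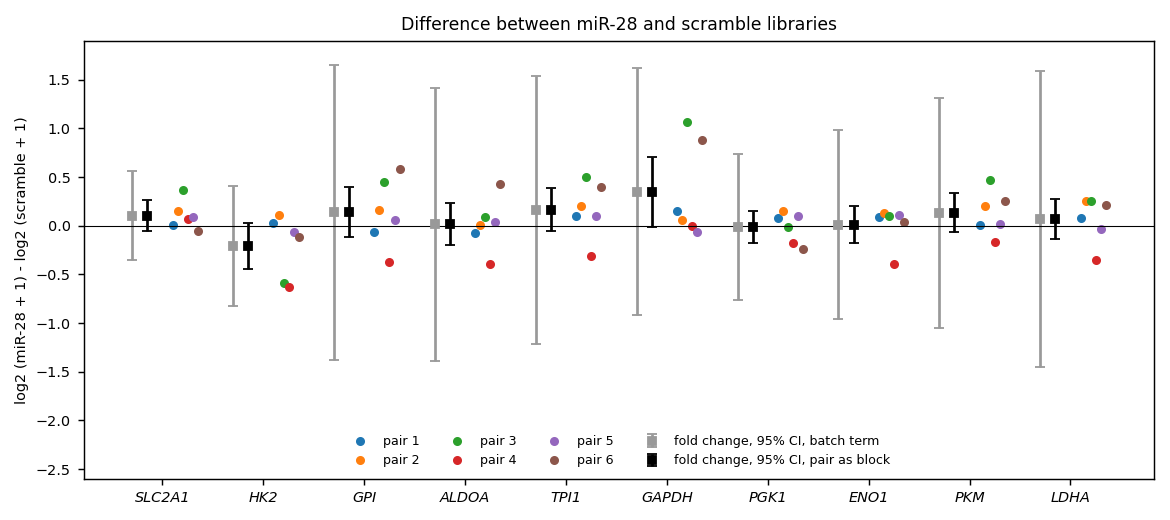
Difference between miR-28 and scramble on the log2(CPM + 1) scale for each of the 10 genes. Coloured points are the 6 sample pairs, grey and black squares the limma fold change with its 95% interval from the fit with batch and the fit with the pair as a block. All black intervals hold 0, the points of GAPDH reach 1.07 in pair 3 and 0.88 in pair 6, and those of HK2 fall to -0.58 in pair 3 and -0.63 in pair 4.

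The effect of miR-28 was also compared between library batches. The interaction, batch 2 minus batch 1, ranged from -0.25 (SE 1.46) in LDHA to 0.02 (SE 1.35) in ALDOA. By limma 0 of 10 genes passed, as 0% of all genes did, and 0 of 10 had an unadjusted p under 0.05, where 9 of all genes had. DESeq2 and edgeR called 0 of 10 too. Within batches the GAPDH fold change was 0.43 in batch 1 and 0.27 in batch 2, and that of HK2 was -0.15 and -0.27.

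Ratios between related enzymes differed between pairs, and some differed within pairs. GAPDH and PGK1 catalyse consecutive steps, and their ratio per kilobase was 4.93 in scramble library 3 and 10.4 in miR-28 library 3. For pair 6 it was 7.20 and 15.6. In pairs 1, 2, 4 and 5 the libraries of a pair were close, and pair 4 was low in both, at 4.59 and 5.17. The ratio of LDHA to LDHB, the subunit of the enzyme form that favours pyruvate, lay between 0.195 and 0.805 per kilobase. It was low in both libraries of pairs 3, 4 and 6, so LDHA varied more between pairs than LDHB, which had 602 to 1298 CPM. HK2 exceeded the ubiquitous hexokinase HK1 per kilobase in 11 of 12 libraries, and the ratio ranged from 0.950 to 2.17. Together the 10 genes took 0.279% of reads in scramble library 3 and 1.40% in miR-28 library 5, the lowest and the highest of the 12.

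**Figure D4:**
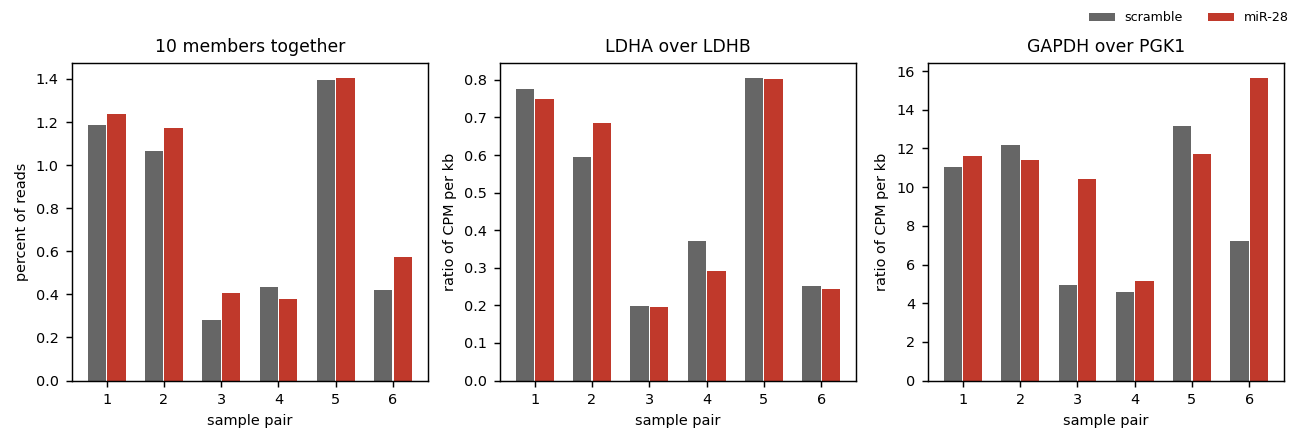
Bars, starting at 0, for the scramble (grey) and miR-28 (red) library of each sample pair: the share of reads of the 10 genes together, the LDHA to LDHB ratio and the GAPDH to PGK1 ratio, both of CPM per kilobase. The first and second panels show high pairs 1, 2 and 5, and in the third the miR-28 bar stands well above its partner in pairs 3 and 6.

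The rest of the pathway was followed in lists of related genes. Of 20 other isoforms and steps of glycolysis 11 were measured, and in limma 0 passed with batch or with the block. At an unadjusted p under 0.05 there were 0 with batch and 2 with the block, ENO2 and ENO3. Of all 12725 genes, 42 and 929 had such a p. The order of pairs 1, 2 and 5 above 3, 4 and 6 was found in 5 of these 11: HK1, PFKP, ALDOC, PGAM1 and LDHB (45.5%, against 21.5% of all genes). The reverse order was found in 2 of 11 (18.2%, near the 22.1% of all genes), the enolases ENO2 and ENO3, which are known from neurons and muscle, at 0.621 to 13.9 and 2.82 to 31.1 CPM. Phosphofructokinase, the step between GPI and ALDOA, was measured as PFKM (113 to 270.4 CPM), PFKL (64.6 to 160.1) and PFKP (65.3 to 195), and of these only PFKP had the order of the 10 genes.

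Other hexose carriers beside SLC2A1 were measured for 7 of 13 genes, and 0 passed in either limma fit. At an unadjusted p under 0.05 there were 0 with batch and 2 with the block, SLC2A5 and SLC2A6. Of all 12725 genes, 42 and 929 had such a p. SLC2A5, the fructose transporter GLUT5, had 33.1 to 301 CPM, and SLC2A3, the neuronal glucose transporter GLUT3, had 0.443 to 2.73 CPM. SLC2A5 and SLC2A6 had the order of the 10 genes, which is 28.6% of the 7, near the 21.5% of all genes. SLC2A6 was higher with miR-28 in 6 of 6 pairs (0.42, SE 0.472; limma adjusted p 1.00, and 0.607 with the block). SLC2A13, a carrier of myo-inositol, was lower in 6 of 6 (-0.16, SE 0.230; limma adjusted p 1.00 and 0.607).

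The order of pairs was also counted in routes that leave glycolysis, where 21.5% of all genes had it and 22.1% the reverse. In the pentose phosphate pathway, which makes NADPH and ribose 5-phosphate from glucose 6-phosphate, 8 of 8 genes were measured and 4 had it, among them the transketolase TKT (141 to 612 CPM) and the transaldolase TALDO1 (143 to 222 CPM). Of the hexosamine, serine, glycerol and glycogen branches 17 of 19 genes were measured and 7 (41.2%) had the order, among them the phosphoglucomutase PGM1 (46.9 to 129 CPM) and the glycogen synthase GYS1 (17.9 to 68.8 CPM). Of genes for the fate and export of pyruvate and lactate 18 of 20 were measured. Of these 5 (27.8%) had the order, including the lactate exporter SLC16A1 (77.2 to 199 CPM), and 2 (11.1%) had the reverse, GPT2 and MPC1. Of genes that control glycolytic flux 9 of 16 were measured and 3 (33.3%) had the order, PFKFB3, PFKFB4 and MLX. The shares of the flux and the pyruvate and lactate lists lie near that of all genes. In limma 0 genes of these 4 lists passed for miR-28 against scramble with batch or with the block. At an unadjusted p under 0.05 there were 0 with batch, and with the block 1, the endoplasmic reticulum enzyme H6PD (-0.18, limma adjusted p 0.607). Of all 12725 genes, 929 had such a p with the block.

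Other target genes of HIF, outside glycolysis, had the reverse order more often than all genes did. Of 20 genes 17 were measured: 9 were lower in pairs 1, 2 and 5 (52.9%, against 22.1% of all genes) and 3 (17.6%) were higher, namely BNIP3, HILPDA and FAM162A. Among the 9 were the angiogenic growth factor VEGFA (67.2 to 317 CPM), the mitophagy receptor BNIP3L (52.2 to 118 CPM) and the mTOR regulator DDIT4 (21.6 to 93.5 CPM). The scarce EGLN3 (0.311 to 8.96 CPM), P4HA2 (0.531 to 4.18 CPM) and RORA (0.414 to 1.87 CPM) were also among them. VEGFA was lower with miR-28 in 6 of 6 pairs (-0.31, SE 0.368), with a limma adjusted p of 1.00 with batch and 0.607 with the block. HIF1A, the oxygen-regulated subunit of HIF-1, had 127 to 229 CPM and neither order. In limma 0 of the 17 passed in either fit. At an unadjusted p under 0.05 there were 0 with batch and 1 with the block, VEGFA. Of all 12725 genes, 929 had such a p with the block.

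**Figure D5:**
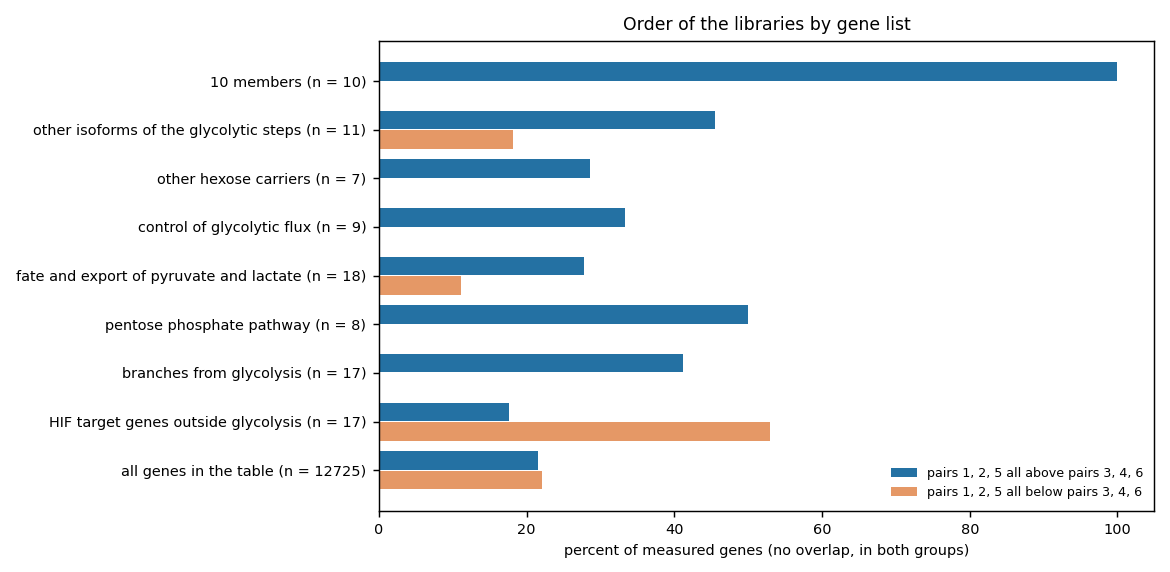
Percent of measured genes in each list whose libraries of pairs 1, 2 and 5 were all above (blue) or all below (orange) those of pairs 3, 4 and 6 in both groups. The bar of the 10 genes reaches 100% and that of all 12725 genes 21.5%, while the HIF targets outside glycolysis show 52.9% in the reverse order.

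As the 10 genes had the same order of pairs, their promoters were searched for the E-box CACGTG, a motif bound by MYC and its partner MAX, with RefSeq windows on GRCh38.p14 from 250 bases before to 50 after each start site. The windows are shown 5′ to 3′ for 3 genes with the motif, in capitals: LDHA with the widest range, GAPDH with the highest fold change and HK2 with the lowest. The fourth is TPI1, whose range was 7.21-fold and of whose windows none held it. In all, 15 windows of the 10 genes were searched.
LDHA (chr11:18394313-18394612, plus strand): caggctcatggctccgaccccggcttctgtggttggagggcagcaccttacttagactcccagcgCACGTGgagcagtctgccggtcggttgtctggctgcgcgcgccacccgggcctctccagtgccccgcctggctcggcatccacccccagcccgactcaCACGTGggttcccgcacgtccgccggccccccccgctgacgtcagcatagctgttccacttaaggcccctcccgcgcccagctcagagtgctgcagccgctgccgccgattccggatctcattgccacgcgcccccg
GAPDH (chr12:6535014-6535313, plus strand): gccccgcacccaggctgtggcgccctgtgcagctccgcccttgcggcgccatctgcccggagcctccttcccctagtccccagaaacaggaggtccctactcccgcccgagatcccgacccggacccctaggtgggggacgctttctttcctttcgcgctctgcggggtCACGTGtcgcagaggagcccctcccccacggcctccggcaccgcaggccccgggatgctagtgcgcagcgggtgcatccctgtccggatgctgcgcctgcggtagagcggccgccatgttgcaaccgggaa
HK2 (chr2:74834920-74835219, plus strand): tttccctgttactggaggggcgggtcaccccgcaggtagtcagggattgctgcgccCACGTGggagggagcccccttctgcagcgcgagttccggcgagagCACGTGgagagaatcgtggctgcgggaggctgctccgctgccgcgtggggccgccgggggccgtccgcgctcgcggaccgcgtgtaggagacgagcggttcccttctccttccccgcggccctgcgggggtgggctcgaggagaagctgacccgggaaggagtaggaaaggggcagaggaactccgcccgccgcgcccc
TPI1 (chr12:6867281-6867580, plus strand): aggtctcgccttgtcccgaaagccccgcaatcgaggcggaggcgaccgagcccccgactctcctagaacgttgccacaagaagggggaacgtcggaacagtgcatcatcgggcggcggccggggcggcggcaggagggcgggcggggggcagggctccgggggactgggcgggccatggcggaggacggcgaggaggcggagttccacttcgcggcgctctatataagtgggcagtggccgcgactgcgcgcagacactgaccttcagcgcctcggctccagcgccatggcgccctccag

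CACGTG, which reads the same on both strands, lay 185 and 87 bases upstream of 1 start site of LDHA. It lay 194 and 149 upstream of 1 start site of HK2, and 112 upstream of 1 start site of ALDOA. The other windows of LDHA, HK2 and ALDOA held none. In GAPDH it lay 81 bases upstream of the start site of its only window. That window lies inside the gene span given above, so the 5′ end of that span was not searched. The windows of HK2 and ALDOA that held the motif also lie inside the gene spans given above. Other windows of HK2 and ALDOA cover the 5′ ends of those spans and held no CACGTG. The motif was found in 4 of 10 genes, against 1212 of 9404 measured genes with a window (12.9%). The core ACGTG of a hypoxia response element, searched on both strands, was found in 7 of 10 genes against 33.0%, and GCGTG in 7 of 10 against 59.2%. Each CACGTG holds ACGTG on both strands, so these matches overlap. Matches describe the letters of the windows only, and no binding was measured.

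The arm of miR-28 in the RefSeq table was miR-28-3p, from chr3:188688834-188688855 (plus strand, GRCh38.p14), shown with its seed, bases 2 to 8, in capitals because the site search below used it.
hsa-miR-28-3p: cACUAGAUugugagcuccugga

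The heptamer complementary to this seed, ATCTAGT, was found in 0 of the 10 genes' longest annotated 3' UTRs, which were 204 bases (GAPDH) to 3466 bases (PGK1) long. Among measured genes with a 3' UTR, 856 of 10771 (7.95%) had it. Sites of miR-28-5p were not analysed here.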

How the data were processed

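The authors sequenced polyadenylated RNA of 12 libraries, with RSEM 1.2.3, CASAVA 1.8.2, cutadapt and the GRCh38 build per the submitters' processing notes. How low genes were filtered, which annotation release served and how values were normalized is not given in those notes. The deposited table has 1 signal column per library, with no value below 0. By their numbers, these values are CPM scaled by edgeR's TMM factors: whole reads were recovered for 100% of values, within 0.01 reads. Each of the 10 genes had 1147 reads or more in every library. The value of 3 reads ranged from 0.0830 to 0.181 CPM and covers counting error only. Symbols were matched for 12528 of 12725 identifiers, and positions and lengths came from GENCODE 29. No strand setting is given, so reads of overlapping or antisense genes cannot be told apart.

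As the values are normalized, limma 3.58.1 (R 4.3.3, trend) on log2(CPM + 1) with group and library batch was fitted across all 12725 genes, with Benjamini-Hochberg adjustment over them and a threshold of 0.05. Fold changes on this scale understate those of low genes. Both libraries of a pair deviated together from their group means (correlations over 10388 genes of 0.740 to 0.906, each library correlating best with its own partner), and the labels name the sample pairs, so the pair was also fitted as a block. edgeR 4.0.16 and DESeq2 1.42.0 on recovered reads were alternatives, as were other scalings, pseudocounts, filters and sets of libraries. Genes named are the 10, MIR28 and SPCS3 as checks, isoforms beside the 10 (HK1, LDHB, SLC2A3, PGAM1, PFKL, PFKM and PFKP), and candidates from each related list, the 4 with the smallest limma p. Of these candidates the text gives only some, and those, like other genes of the lists, were picked after their values were seen. The 10 genes and the lists were chosen with earlier results of these data known.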

Additional observations from a re-analysis of the deposited data

Results flagged for a closer look

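Of 135 groups of 6 values examined, 13 held a value far from the other 5. The rule flags about 1 in 20 groups of independent, normally distributed values. These groups share the same libraries, and many of their genes were picked by p, so the 13 cannot be set against that rate. Among the 10 glycolytic genes the flagged value was that of ENO1 in pair 4. Its log2 difference between miR-28 and scramble was -0.39, against 0.036 to 0.13 in the other pairs.

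The scramble library of pair 3, which had the highest mitochondrial share, stood apart in PFKM (270.4 CPM, others 123 to 171), ENO3 (31.1, others 2.82 to 11.7), ENO2 (13.9, others 0.754 to 4.92), SLC2A13 (13.9, others 5.35 to 7.83), PDP2 (57.0, others 21.0 to 29.5) and VEGFA (317 CPM, others 75.9 to 164). The part of that share in these values was not tested. In the same pair, the miR-28 library had 11.4 CPM of SLC2A13 (others 5.05 to 6.76), and the log2 difference was -0.99 for PDP2 (others -0.25 to 0.10) and 0.78 for PGM2 (others -0.19 to 0.09).

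Elsewhere HIF1A had 214 CPM in the miR-28 library of pair 4 (others 131 to 159). GFPT1, the first enzyme of hexosamine synthesis, had 118 CPM in the scramble library of pair 6 (others 83.0 to 88.2), and ANKRD37 had 7.87 CPM in that of pair 4 (others 9.07 to 9.32).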

How the results depend on the processing

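In 30 settings of miR-28 against scramble 0 of the 10 genes were called, and the smallest adjusted p of any was 0.464 (limma, HK2 and GAPDH, replicate block without pair 2). At an unadjusted p under 0.05 there were 0 of the 10 in limma with batch (42 of 12725 genes) and with the block (929 genes). There were 3 of the 10 at most, with the block and without pair 4, where 673 of all genes had such a p. These were TPI1 (0.26, limma p 0.0145), GAPDH (0.42, limma p 0.0467) and GPI (0.24, limma p 0.0484), each with a limma adjusted p of 0.668. SLC2A1, TPI1, GAPDH and PKM stayed above 0 and HK2 below 0 in every setting; GPI, ALDOA, PGK1, ENO1 and LDHA changed sign in at least 1. GAPDH ranged from 0.03 without pairs 3 and 6 to 0.47 with values averaged over libraries of the same XENO label. Over all genes, 2 were called by limma with batch, MIR28 and SPCS3, and 3 with the replicate block. The count was 0 with a pseudocount of 5 (42 genes at an unadjusted p under 0.05), a mean of 5 or more (33), no TMM (36), edgeR (45), batch 1 alone (13), batch 2 alone (12), pairs 3 and 6 left out (41) or averaging by XENO label (422). It was 4 without pairs 3 and 6 with the block, and 1 by edgeR and 21 by DESeq2 with the block, both chosen after seeing the data. Leaving out each pair in turn gave 0 in all cases with batch and 0 to 3 with the block. For the interaction with batch DESeq2 called 2 genes in place of 0, neither of them among the 10. The block changed no other call of the 10 genes. The pairs with a XENO number are the same libraries as those left without pair 3. The order of libraries under other scalings, and ranges without pair 3, were also examined after seeing the data.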
